A study of Mus musculus with 24 samples.

Results

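Mouse macrophages derived from bone marrow were compared after 12 days of co-culture and after 6 days of co-culture. The comparison holds the 3 libraries that the sample titles place at day 12 and the 3 that they place at day 6, 6 of the 24 libraries of the series. The series also holds bone marrow-derived macrophages after 3 days of co-culture and at day 0 without it, and, sampled on the same days, macrophages made from induced pluripotent stem cells (iPSC). Each of the 8 groups has n = 3, which the design text calls independent replicates. No treatment or genetic change is labelled, and the labels name neither the co-culture partner nor the mouse strain, age or sex. Day 12 and day 6 cells had both been in co-culture, so the comparison concerns time in co-culture and not its presence.

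Macrophages are phagocytes that engulf particles, degrade them in lysosomes and present peptides to T cells on major histocompatibility complex (MHC) molecules. Microglia are the macrophages of the brain parenchyma, marked by genes such as Tmem119, P2ry12, Cx3cr1 and Fcrls, and they can renew themselves by division. Macrophages grown from bone marrow with growth factors are commonly used as a model of inflammatory and phagocytic responses.

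Read counts per gene came from SMART-seq v2 libraries, a full-length method for small amounts of RNA. The 6 libraries held 5839316 to 10070221 counts, with the lowest total in day 6 replicate 2, and 17267 to 18321 genes had at least 1 count. Levels are CPM, counts scaled to library size, and changes are log2 fold changes of day 12 over day 6 with a standard error (SE) from edgeR's quasi-likelihood test on all 24 libraries. The Benjamini-Hochberg adjustment ran over 15000 genes, those with an adjusted p below 0.05 were called, and "rose", "fell" and "changed" refer to called genes. The p-values measure only the spread between these libraries. In bulk libraries, fewer cells of a type and less RNA per cell cannot be told apart. Mitochondrial genes made up 4.16%, 5.18% and 4.77% of counts at day 12, against 3.56%, 3.90% and 3.15% at day 6, so the groups did not overlap in this share. The 22 general macrophage markers, Cd68, Adgre1 and Spi1 among them, were all detected, and their summed level was 33187 to 37843 CPM at day 12 and 36520 to 38789 CPM at day 6. Of the 22, 6 had positive and 16 negative fold changes. In 12 every day 12 library lay below every day 6 library, and in 5 above, against 12% and 12.2% of all tested genes. Only Ctss was called, and it fell. A fit on only the 12 bone marrow-derived libraries called 4 of the 22 higher and 8 lower. Libraries of the same day correlated at 0.944 to 0.962 and libraries of different days at 0.936 to 0.949 (log2 CPM, across genes).

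The genes that rose included Tpx2, Cdca8 and Cdc6 of the cell cycle and the membrane protein Pmepa1. Those that fell included the MHC genes H2-K1, H2-D1, H2-T23, H2-Aa and Cd74, the lysosomal genes Psap, Ctsl and Ctss, the glycolytic genes Aldoa and Tpi1, and Saa3, Ccl5 and Pltp. In all, 22 genes rose and 56 fell, which is 0.147% and 0.373% of the 15000 tested. All 78 had no overlap between the 3 day 12 and the 3 day 6 values, while 12.2% of all tested genes lay wholly above and 12% wholly below. The rises spanned log2 fold changes of 0.63 to 3.47 and the falls -0.48 to -3.93, and 13 rises and 27 falls were at least 2-fold. The median over all tested genes was 0.00, and 1527 of the 15000 had an unadjusted p below 0.05, in either direction. Leaving out any 1 library lowered the calls, to between 0 (without day 6 replicate 1) and 5 (without day 12 replicate 1) rises and between 17 (without day 12 replicate 3) and 34 (without day 12 replicate 1) falls. A fit on only the 12 bone marrow-derived libraries, whose biological coefficient of variation was 0.229 against 0.338 over all 24, called 505 genes higher and 536 lower, 3.66% and 3.88% of 13812. Of 39 named genes that were called, 12 stayed called whichever of the 6 libraries was left out: Acp5, Saa3, Pltp, Thbs1, Ctsl, H2-K1, H2-D1, H2-T23, Aldoa, Psap, Fcgr4 and Slc11a1. The calls of 10 were lost in each of the 6 cases without a change of direction, among them Ltc4s, Asf1b, Cdca8, Slc38a2, Golm1, Chil1, H2-Aa, Cd74 and Cdc6.

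**Figure D1:**
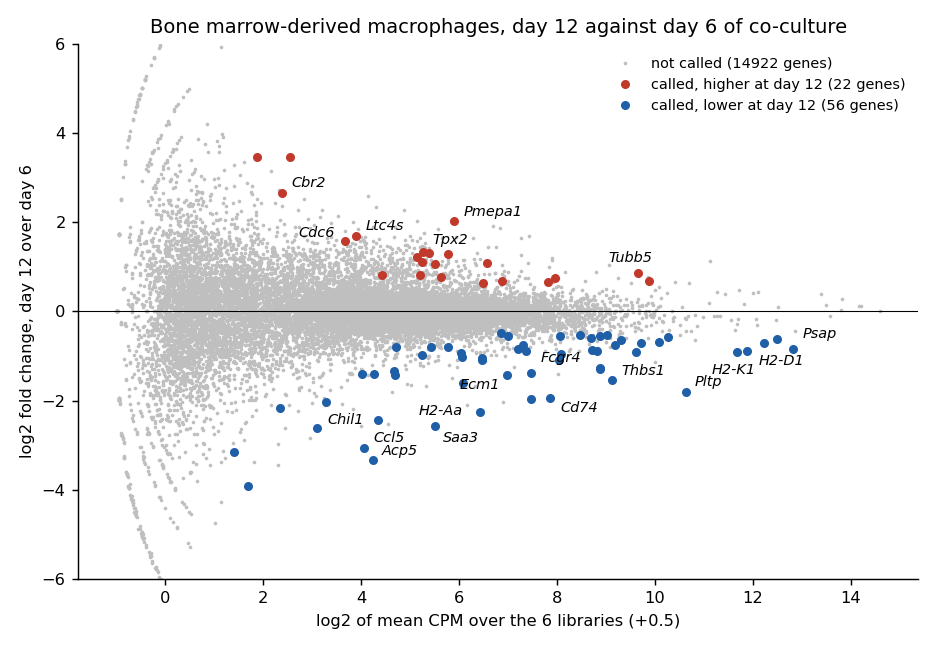
Log2 fold change (day 12 over day 6) of each tested gene against the log2 of its mean CPM over the 6 libraries plus 0.5. Red points are the 22 genes that rose and blue points the 56 that fell, with examples named; 22 uncalled genes beyond 6 log2 units are not drawn.

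Genes of cell division were among those that rose. Tpx2, a spindle protein that activates Aurora A kinase, had 59.2, 53.04 and 50.3 CPM at day 12, against 17.99, 18.4 and 27.7 CPM at day 6. It rose by a log2 fold change of 1.34 ± 0.29 (SE, edgeR adjusted p = 0.0312), and its lowest day 12 library lay well above its highest day 6 library. Cdca8 encodes borealin, a subunit of the chromosomal passenger complex that carries Aurora B. It had 47.1, 46.1 and 53.6 CPM at day 12, against 21.1, 17.6 and 24.2 CPM at day 6 (1.22 ± 0.29, edgeR adjusted p = 0.0496), again without overlap. Tubb5, a beta-tubulin that is not specific to dividing cells, had 881, 1057 and 1157 CPM at day 12, against 585, 522 and 605 CPM at day 6 (0.85 ± 0.16, edgeR adjusted p = 0.00732).

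Genes of DNA replication and chromatin assembly were also among the rises. Cdc6, which loads the MCM helicase at replication origins, had 21.8, 16.7 and 16.6 CPM at day 12, against 5.22, 4.96 and 8.07 CPM at day 6 (log2 fold change 1.59 ± 0.36, edgeR adjusted p = 0.0476). Asf1b, a histone chaperone of the S phase, averaged 59.1 ± 7.83 CPM at day 12 and 24.0 ± 4.75 CPM at day 6 (SD, n = 3 each; 1.30 ± 0.29, edgeR adjusted p = 0.0455). H2afx, the histone variant phosphorylated at DNA breaks, averaged 50.6 ± 11.5 CPM at day 12 and 23.5 ± 3.13 CPM at day 6 (1.11 ± 0.25, edgeR adjusted p = 0.0425). The day 12 and day 6 values of these genes did not overlap.

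Most other genes of the cycle had positive fold changes without passing the test. All 32 genes of a mitosis list had a positive fold change, 0.45 to 1.70 with a median of 1.36. Wholly above their day 6 values lay 31 of them, against 12.2% of all tested genes. Only Tpx2 of the 32 was called. In the fit on the 12 bone marrow-derived libraries 24 of the 32 were called higher and 0 lower. Of all genes in that fit 3.66% were called higher and 3.88% lower. Mki67, the Ki-67 proliferation antigen, had 125, 127 and 167 CPM at day 12, against 45.9, 39.7 and 68.0 CPM at day 6 (1.45 ± 0.34, edgeR adjusted p = 0.0516). Its adjusted p was 4.06e-04 in the fit on the 12 libraries. In that fit the kinases Aurkb and Plk1 and the cyclin Ccnb2 were also called, with adjusted p of 0.00271, 0.00179 and 4.58e-04 (edgeR). Of 30 DNA replication genes 1 was called, Cdc6, with 29 positive fold changes and a median of 0.91, and 14 were called higher in the fit on the 12 libraries. Fibroblast markers moved with this group: the 14 markers summed to 185 to 307 CPM at day 12 and 69.2 to 98.7 CPM at day 6. Their part in the result, and that of the mitochondrial share, was not tested.

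Promoters of 2 cycle genes are shown as examples of short elements that most of the mitosis list shared. Cdca8 was called and is not on that list, while Ccnb2 is on it, was not called over 24 libraries and was chosen after its values were seen. The windows are RefSeq sequences of build GRCm38.p6, from 250 bases before to 50 bases after the gene's start, printed 5′ to 3′ along the gene's strand. Capitals mark the cell cycle homology region, searched as TTTGAA, and the CCAAT box, searched as CCAAT, each on both strands, so that a CCAAT box on the other strand reads ATTGG. The Cdca8 window lies at chr4:124936868-124937167 on the minus strand and the Ccnb2 window at chr9:70421505-70421804 on the minus strand. The windows follow RefSeq starts, which can differ from the annotation used for counting. There Cdca8 spans chr4:124918465-124939311 and H2-D1 chr17:35262730-35267499, so that their windows lie inside the counted gene.
Cdca8: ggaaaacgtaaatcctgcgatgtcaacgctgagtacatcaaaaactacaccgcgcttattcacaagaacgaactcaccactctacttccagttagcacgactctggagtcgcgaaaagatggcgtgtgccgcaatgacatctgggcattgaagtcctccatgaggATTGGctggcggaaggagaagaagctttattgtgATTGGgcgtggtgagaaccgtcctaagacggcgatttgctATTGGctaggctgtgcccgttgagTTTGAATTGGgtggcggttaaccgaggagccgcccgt
Ccnb2: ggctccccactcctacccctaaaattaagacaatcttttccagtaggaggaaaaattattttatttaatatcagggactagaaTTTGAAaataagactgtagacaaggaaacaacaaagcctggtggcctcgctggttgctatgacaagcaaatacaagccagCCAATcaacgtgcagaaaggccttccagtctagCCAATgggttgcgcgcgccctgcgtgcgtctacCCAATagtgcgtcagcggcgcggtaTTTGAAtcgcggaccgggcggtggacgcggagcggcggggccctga
The Cdca8 window held 1 TTTGAA and 4 CCAAT boxes, of which the last overlaps the TTTGAA. The Ccnb2 window held 2 TTTGAA and 3 CCAAT boxes. Of the 32 mitosis genes 26 had a window in the table, and Tpx2 did not. TTTGAA was found in 19 of these 26 genes, or 73.1%, against 14.5% of the 10618 tested genes with a window. CCAAT was found in 21 of the 26, or 80.8%, against 42.6%. It was as frequent in MHC genes, described below, whose fold changes were mostly negative. Of those with a window, 13 of 16 class I genes, or 81.3%, and 7 of 7 class II genes held it. For DNA replication the E2F element, searched as TTTNNCGC on both strands, was in 12 of 24 genes with a window, or 50%, against 9.58%. Over the 22 genes that rose, 17 had a window, with TTTGAA in 4 and CCAAT in 9.

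MHC genes were among those that fell. H2-K1, a classical MHC class I heavy chain, had 2378, 2346 and 2086 CPM at day 12, against 4010, 4283 and 4611 CPM at day 6. It fell by a log2 fold change of -0.92 ± 0.11 (edgeR adjusted p = 7.38e-05). H2-D1, the other classical heavy chain, had 2838, 2765 and 2403 CPM at day 12, against 4530, 4938 and 5301 CPM at day 6 (-0.88 ± 0.11, edgeR adjusted p = 7.38e-05). In both genes every day 12 library was far below every day 6 library. H2-T23, the non-classical molecule Qa-1, had 302, 330 and 263 CPM at day 12, against 551, 542 and 534 CPM at day 6 (-0.86 ± 0.14, edgeR adjusted p = 0.0018). Class I genes are near-identical in parts, and reads that mapped to several places were not counted, so the values of single H2 genes are uncertain.

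The promoter windows of H2-K1 and H2-D1 are given from the same table, with the conserved class I element TGACGC in capitals. The H2-K1 window lies at chr17:34000298-34000597 on the minus strand and the H2-D1 window at chr17:35262844-35263143 on the plus strand. H2-K1 has 2 windows in the table, of which 1 is printed.
H2-K1: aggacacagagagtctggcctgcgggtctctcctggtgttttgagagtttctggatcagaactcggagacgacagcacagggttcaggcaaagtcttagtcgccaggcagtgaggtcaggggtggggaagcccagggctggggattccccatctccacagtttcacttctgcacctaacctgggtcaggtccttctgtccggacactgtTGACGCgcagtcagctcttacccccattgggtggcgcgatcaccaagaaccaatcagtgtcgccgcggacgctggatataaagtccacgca
H2-D1: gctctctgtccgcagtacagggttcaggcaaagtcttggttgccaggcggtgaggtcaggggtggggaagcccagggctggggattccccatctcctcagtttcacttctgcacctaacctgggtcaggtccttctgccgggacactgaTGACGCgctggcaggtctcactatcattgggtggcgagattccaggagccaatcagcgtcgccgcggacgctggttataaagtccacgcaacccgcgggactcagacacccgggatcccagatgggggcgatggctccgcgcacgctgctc
Each window held 2 CCAAT boxes, which are not in capitals here. Each also held 1 TGACGC, searched on both strands. It was found in 4 of 16 class I list genes with a window, or 25%, against 14.1% of tested genes with one, and in 7 of 45 genes that fell and had a window, or 15.6%. The interferon-stimulated response element, searched by its consensus on both strands, was in 4 of the 16 class I genes, or 25%, and in 5 of the 45, or 11.1%, against 4.01% of tested genes.

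Of 18 list genes 3 fell and 0 rose, with a median log2 fold change of -0.35 and 17 of 18 negative. The peptide transporter Tap1 averaged 204 ± 39.8 CPM at day 12 and 259 ± 18.5 CPM at day 6 (-0.35 ± 0.21, edgeR adjusted p = 0.596), and Nlrc5, the class I transactivator, had a log2 fold change of -0.35 ± 0.24. Neither was called in the fit on the 12 bone marrow-derived libraries, which called 5 of the 18 lower.

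The class II genes had larger folds at lower levels. H2-Aa, the class II alpha chain, had 27.6, 38.6 and 22.8 CPM at day 12, against 174, 115 and 133 CPM at day 6 (log2 fold change -2.25 ± 0.48, edgeR adjusted p = 0.0412). Cd74, the invariant chain that guides class II molecules to endosomes, had 98.2, 114 and 73.9 CPM at day 12, against 423, 324 and 351 CPM at day 6 (-1.94 ± 0.41, edgeR adjusted p = 0.0418). These 2 of 10 class II list genes fell, and 0 rose. The chains H2-Eb1 and H2-Ab1 and the class II transactivator Ciita had log2 fold changes of -2.09 ± 0.48, -2.04 ± 0.51 and -1.998 ± 0.93 without being called. The fit on the 12 libraries called 6 of the 10 lower, H2-Eb1, H2-Ab1 and Ciita among them. H2-DMa, which helps load peptides, averaged 121 ± 20.8 CPM at day 12 and 140 ± 13.7 CPM at day 6, with overlap. The list median was -1.22. Other antigen-presenting cells were looked for: of 11 dendritic cell markers 8 were tested, of which edgeR and DESeq2 called 0, with 2 higher and 1 lower at an unadjusted p below 0.05, and Flt3 was at 0 in all 6 libraries. The dendritic cell markers summed to 444 to 521 CPM at day 12 and 287 to 317 CPM at day 6, without overlap, of which Bst2, also an interferon response gene, averaged 469 ± 40.8 CPM at day 12 and 293 ± 13.7 CPM at day 6.

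**Figure D2:**
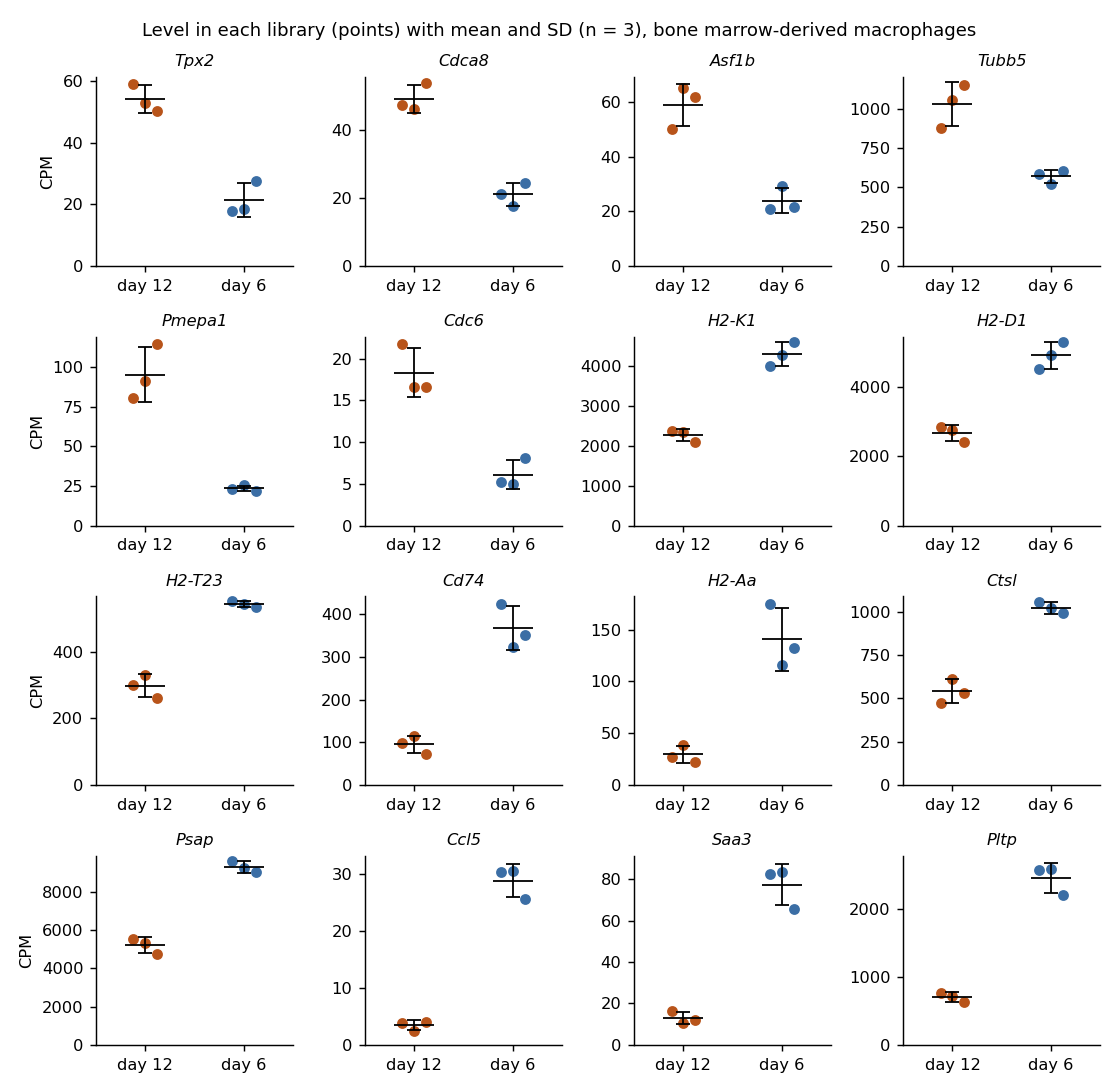
CPM of 16 called genes in each library (points) of bone marrow-derived macrophages at day 12 (left) and day 6 (right), with the mean and SD of 3 libraries. The first 6 genes were higher in every day 12 library than in any day 6 library, and the other 10 were lower.

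Saa3, Ccl5 and Chil1, which encode secreted proteins, fell. Saa3, an acute-phase serum amyloid, had 16.1, 10.8 and 12.1 CPM at day 12, against 82.5, 83.6 and 65.8 CPM at day 6 (log2 fold change -2.57 ± 0.29, edgeR adjusted p = 3.35e-05). Ccl5, a chemokine for T cells and monocytes, had 3.81, 2.48 and 4.05 CPM at day 12, against 30.4, 30.5 and 25.6 CPM at day 6 (-3.06 ± 0.51, edgeR adjusted p = 0.00532). Both were several-fold lower in each day 12 library. Chil1, a chitinase-like lectin, averaged 6.14 ± 1.97 CPM at day 12 and 33.2 ± 4.05 CPM at day 6 (-2.44 ± 0.47, edgeR adjusted p = 0.0203).

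Il18bp, a soluble inhibitor of interleukin 18, averaged 72.7 ± 11.8 CPM at day 12 and 282 ± 37.2 CPM at day 6 (log2 fold change -1.95 ± 0.32, edgeR adjusted p = 0.00418). Cd274, the checkpoint ligand PD-L1, averaged 33.3 ± 9.66 CPM at day 12 and 102 ± 12.1 CPM at day 6 (-1.61 ± 0.27, edgeR adjusted p = 0.00406). Cfb, complement factor B, averaged 2.26 ± 1.87 CPM at day 12 and 13.9 ± 1.67 CPM at day 6 (-2.62 ± 0.60, edgeR adjusted p = 0.0461), and it was the 1 called gene of 19 complement genes. None of these genes had overlapping days. Thbs1, a matrix glycoprotein, had 297, 283 and 277 CPM at day 12, against 1050, 729 and 726 CPM at day 6 (-1.55 ± 0.23, edgeR adjusted p = 0.00112). Plaur, the urokinase receptor, fell by a log2 fold change of -1.33 ± 0.27 (edgeR adjusted p = 0.0201).

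Cytokine genes driven by NF-kB, as a list, were not called. Of 27 tested members 0 passed, against 0.52% of all genes in either direction. Of the 27, 23 were negative, and 9 negative members had an unadjusted p below 0.05. In either direction 1527 of all 15000 tested genes had such a p. Wholly below their day 6 values lay 17 members and wholly above 1, against 12% and 12.2% of all tested genes. DESeq2 called 2 of the 27 lower, and the fit on the 12 libraries 7. Il1b, which encodes interleukin 1 beta, had 32.8, 31.6 and 25.9 CPM at day 12, against 115, 61.3 and 78.1 CPM at day 6 (log2 fold change -1.50 ± 0.83, edgeR adjusted p = 0.563). Tnf had 48.1, 51.4 and 49.0 CPM at day 12, against 41.1, 40.6 and 27.4 CPM at day 6 (0.45 ± 0.30, edgeR adjusted p = 0.661). The fold changes of these cytokines had opposite signs, and neither was called over 24 libraries. That of Tnf was the highest of the list. The 12-library fit called Il1b lower (edgeR adjusted p = 6.81e-04) and did not call Tnf (edgeR adjusted p = 0.39).

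The chemokine list was mixed. Ccl5 was the 1 called member of 17, while the monocyte attractant Ccl2 averaged 163 ± 10.5 CPM at day 12 and 43.1 ± 15.7 CPM at day 6 (log2 fold change 1.92 ± 0.65, edgeR adjusted p = 0.253). Ccl12 averaged 117 ± 25.8 CPM at day 12 and 37.6 ± 6.89 CPM at day 6 (1.64 ± 0.51, edgeR adjusted p = 0.189). In the fit on the 12 libraries 6 chemokine genes were called higher, Ccl2 and Ccl12 among them, and 3 lower. Of 30 interferon response genes edgeR called 0 and 25 were negative. At an unadjusted p below 0.05 stood 1 higher and 5 lower, DESeq2 called 2 lower, and the 12-library fit called 1 higher and 4 lower. Irf7, a transcription factor of that response, had a log2 fold change of -1.40 ± 0.37.

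Among lysosomal genes 5 fell and 1 rose of 40 tested. Psap, the precursor of the saposins that assist sphingolipid breakdown, had 5565, 5351 and 4742 CPM at day 12, against 9634, 9273 and 9027 CPM at day 6 (log2 fold change -0.83 ± 0.10, edgeR adjusted p = 9.19e-05). The protease Ctsl had 475, 614 and 533 CPM at day 12, against 1058, 1020 and 991 CPM at day 6 (-0.92 ± 0.14, edgeR adjusted p = 0.00139). Ctss, the protease that trims the invariant chain, had 3230, 3909 and 3724 CPM at day 12, against 6002, 5740 and 6073 CPM at day 6 (-0.71 ± 0.14, edgeR adjusted p = 0.0199). The 3 genes were lower in every day 12 library.

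Acp5, the tartrate-resistant acid phosphatase known from osteoclasts, fell furthest of the named genes. It had 2.61, 4.06 and 3.15 CPM at day 12, against 35.1, 29.7 and 34.8 CPM at day 6 (log2 fold change -3.34 ± 0.42, edgeR adjusted p = 1.02e-04). The median over the 40 genes was -0.19, with 31 negative. Slc11a1, a metal transporter of the phagosome, fell to 315 ± 8.52 CPM at day 12, against 581 ± 10.1 CPM at day 6 (-0.88 ± 0.15, edgeR adjusted p = 0.00406). Pltp, a phospholipid transfer protein and a target of liver X receptors, had 767, 725 and 631 CPM at day 12, against 2583, 2599 and 2212 CPM at day 6 (-1.80 ± 0.23, edgeR adjusted p = 1.02e-04). It was the 1 called gene of 15 on the list of liver X receptor targets. Apoe, on the same list, did not follow it, with 24914 ± 2904 CPM at day 12 and 24859 ± 1138 CPM at day 6 (0.00 ± 0.18), and its sign changed between settings.

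Of 28 phagocytosis genes 2 fell, Fcgr4 and Cd300a. Fcgr4, an activating receptor for IgG, had 96.6, 101.4 and 96.7 CPM at day 12, against 305, 236 and 226 CPM at day 6 (log2 fold change -1.38 ± 0.21, edgeR adjusted p = 0.00124). Cd300a, an inhibitory receptor for phospholipids, averaged 184 ± 16.3 CPM at day 12 and 358 ± 11.4 CPM at day 6 (-0.96 ± 0.17, edgeR adjusted p = 0.00456). The receptors Fcgr3, Fcgr1 and Fcgr2b had log2 fold changes of -0.59 ± 0.15, -0.67 ± 0.18 and -0.60 ± 0.23, and Stab1, a scavenger receptor, one of 0.64 ± 0.23, all uncalled. The 12-library fit called 9 of 26 lower and 5 higher, Stab1 among the higher.

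Glycolytic genes were also among those that fell. Pfkfb3, whose product makes the activator of phosphofructokinase, had 76.4, 49.5 and 47.9 CPM at day 12, against 116, 121 and 119 CPM at day 6 (log2 fold change -1.03 ± 0.17, edgeR adjusted p = 0.00324). Aldoa, the glycolytic aldolase, had 757, 880 and 850 CPM at day 12, against 1361, 1272 and 1366 CPM at day 6 (-0.69 ± 0.12, edgeR adjusted p = 0.00406). Tpi1, triose phosphate isomerase, had 409, 573 and 496 CPM at day 12, against 818, 682 and 801 CPM at day 6 (-0.64 ± 0.14, edgeR adjusted p = 0.0425). These 3 of 30 genes of glycolysis and hypoxia fell and 0 rose. Of the 30, 29 were negative and the median was -0.49. Wholly below their day 6 values lay 21, against 12% of all tested genes. The fit on the 12 libraries called 17 lower, against 3.88% of all its genes, and 0 higher. The glucose transporter Slc2a1 and the hypoxia gene Bnip3 were among the 17. Of 31 oxidative phosphorylation genes edgeR and DESeq2 called 0, and 11 had an unadjusted p below 0.05, all higher. In either direction 1527 of all 15000 tested genes had such a p. Of the 31, 26 were positive and the 12-library fit called 13 higher, against 3.66% of all its genes. The mitochondrial share of counts given above moved in the same direction. Its part was not tested.

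**Figure D3:**
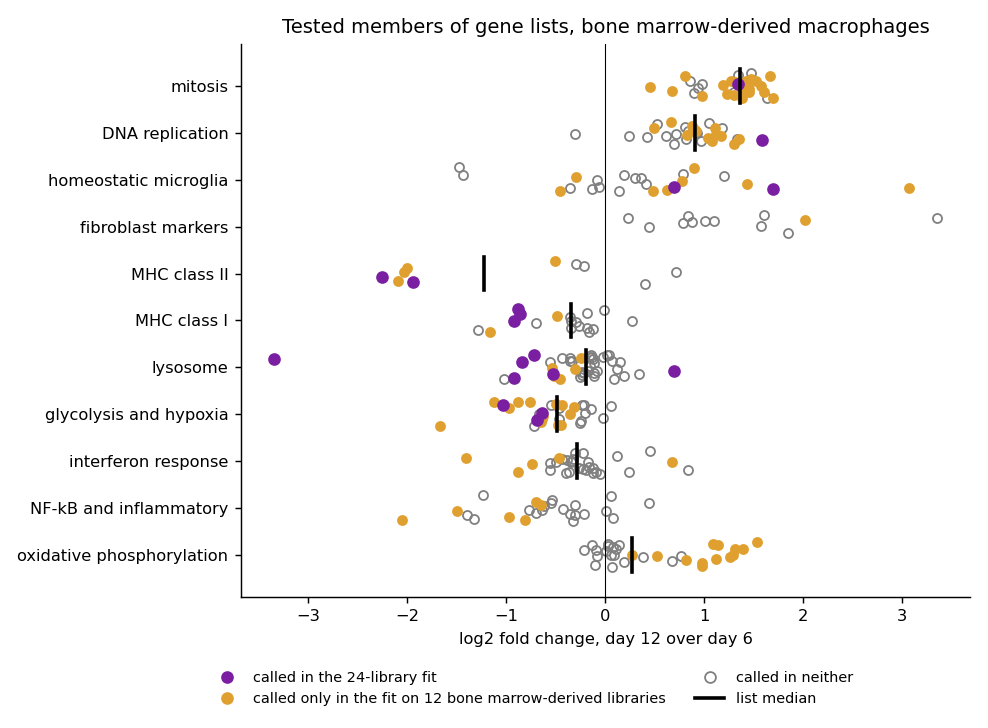
Log2 fold change (day 12 over day 6) of the tested members of 11 gene lists, with lists down the page. Filled purple points were called in the 24-library fit, orange points only in the fit on the 12 bone marrow-derived libraries, open points in neither. Bars are list medians, drawn only for lists with no gene at 0 in all libraries of a day, and 5 such genes are left out. Mitosis (median 1.36) and DNA replication (0.91) lie right of 0, MHC class II (-1.22) and glycolysis (-0.49) left of it.

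Several rises lay outside the cell cycle. Pmepa1, a membrane protein induced by TGF-beta that dampens SMAD signalling, had 80.1, 90.8 and 114 CPM at day 12, against 23.3, 25.3 and 21.6 CPM at day 6 (log2 fold change 2.02 ± 0.36, edgeR adjusted p = 0.00524). Of 22 TGF-beta pathway genes it was the 1 called, and 14 of the 22 were negative. Rasgrp3, an activator of Ras and Rap, averaged 76.4 ± 16.9 CPM at day 12 and 31.4 ± 3.21 CPM at day 6 (1.28 ± 0.26, edgeR adjusted p = 0.0201). Golm1, a Golgi membrane protein, averaged 61.1 ± 2.20 CPM at day 12 and 29.2 ± 5.15 CPM at day 6 (1.06 ± 0.25, edgeR adjusted p = 0.0484). Slc38a2, a transporter of neutral amino acids, averaged 129 ± 14.2 CPM at day 12 and 60.4 ± 12.1 CPM at day 6 (1.10 ± 0.25, edgeR adjusted p = 0.0461). Shmt2, the mitochondrial enzyme that takes a carbon unit from serine, rose by 0.81 ± 0.17 (edgeR adjusted p = 0.0271), the 1 called gene of 25 on a list of ATF4 and unfolded protein targets. Cbr2, a carbonyl reductase on the list of border-associated macrophage genes, had 6.01, 9.52 and 8.91 CPM at day 12, against 0.75, 1.92 and 1.29 CPM at day 6 (2.66 ± 0.52, edgeR adjusted p = 0.0191). Flnc, the muscle-type filamin, had 6.92, 7.04 and 3.33 CPM at day 12, against 0.32, 1.28 and 0.12 CPM at day 6 (3.47 ± 0.68, edgeR adjusted p = 0.0201). In the fit on the 12 bone marrow-derived libraries Flnc was not called (edgeR adjusted p = 0.0683), and its call was lost in 4 of the 6 fits without 1 library, those without day 12 replicate 1 or 2 or day 6 replicate 1 or 3. Cbr2 and Flnc were low at both times, and the fibroblast markers, whose sum did not overlap between the days, moved with Flnc. Their part in it was not tested.

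Of 24 tested homeostatic microglia genes 2 rose and 0 fell. Among them was Ltc4s, leukotriene C4 synthase, with 18.3, 17.6 and 30.2 CPM at day 12, against 5.96, 7.36 and 7.13 CPM at day 6 (log2 fold change 1.70 ± 0.39, edgeR adjusted p = 0.0481). Tmem119 had 162, 144 and 162 CPM at day 12, against 52.6, 57.7 and 62.5 CPM at day 6 (1.43 ± 0.38, edgeR adjusted p = 0.102). Cx3cr1, the fractalkine receptor, had 1100, 1146 and 1250 CPM at day 12, against 670, 658 and 706 CPM at day 6 (0.78 ± 0.37, edgeR adjusted p = 0.485). In both genes the days did not overlap although neither was called over 24 libraries. Their adjusted p was 2.33e-06 and 0.0243 in the fit on the 12 bone marrow-derived libraries, where 8 of 23 list genes were called higher and 2 lower.

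Other microglial genes, apart from Sall1, had smaller fold changes. Fcrls had 3788, 4203 and 3870 CPM at day 12, against 2719, 2952 and 2802 CPM at day 6 (log2 fold change 0.49 ± 0.25, edgeR adjusted p = 0.53). P2ry12, a purine receptor of microglial processes, had 97.2, 92.4 and 86.6 CPM at day 12, against 68.7, 73.4 and 64.9 CPM at day 6 (0.42 ± 0.25, edgeR adjusted p = 0.61). The days were apart in both, and neither was called over 24 libraries. The 12-library fit called Fcrls higher (edgeR adjusted p = 0.00295) and did not call P2ry12 (edgeR adjusted p = 0.143). Sall1, a transcription factor of microglial identity, stayed near the detection limit, at 0.80, 1.09 and 0.09 CPM at day 12 and 1.60, 1.60 and 2.34 CPM at day 6. Its log2 fold change was -1.47 ± 1.29 (edgeR adjusted p = 0.769), uncalled although every day 12 value lay below every day 6 value. Csf1r, the receptor for the macrophage growth factor CSF1, averaged 3881 ± 227 CPM at day 12 and 4771 ± 64.0 CPM at day 6 (-0.30 ± 0.18, edgeR adjusted p = 0.603), and the 12-library fit called it lower (edgeR adjusted p = 0.0318). Trem2, a lipid-sensing receptor, overlapped between the days (-0.08 ± 0.19, edgeR adjusted p = 0.948), and its sign changed when 1 library was left out. C1qa, of complement C1q, also overlapped (0.18 ± 0.19, edgeR adjusted p = 0.815).

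Several monocyte and tissue macrophage genes were not called. The 21 monocyte and granule markers summed to 456 to 511 CPM at day 12 and 983 to 1353 CPM at day 6. They include Thbs1, which fell and was the 1 called member. Of the 12 tested members 5 lay wholly below their day 6 values and 2 wholly above, against 12% and 12.2% of all tested genes. Ccr2, the receptor of circulating monocytes, had 45.7, 45.7 and 43.4 CPM at day 12, against 56.2, 66.9 and 39.5 CPM at day 6 (log2 fold change -0.27 ± 0.40, edgeR adjusted p = 0.89). Mrc1, the mannose receptor, averaged 1240 ± 98.6 CPM at day 12 and 1000 ± 38.5 CPM at day 6 (0.31 ± 0.32, edgeR adjusted p = 0.821). Clec10a, a lectin of alternatively activated macrophages, averaged 9.64 ± 2.01 CPM at day 12 and 13.7 ± 1.19 CPM at day 6 (-0.51 ± 0.40, edgeR adjusted p = 0.728). Hmox1, haem oxygenase, had 352, 441 and 379 CPM at day 12, against 612, 612 and 655 CPM at day 6 (-0.68 ± 0.17, edgeR adjusted p = 0.0725). The iron exporter Slc40a1 averaged 88.6 ± 11.4 CPM at day 12 and 143 ± 28.6 CPM at day 6 (-0.70 ± 0.34, edgeR adjusted p = 0.496). Hmox1 and Slc40a1 were wholly lower at day 12 and were not called over 24 libraries. The 12-library fit called both lower (edgeR adjusted p = 3.98e-05 for Hmox1 and 0.00404 for Slc40a1).

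Transcripts of other cell types were low next to the macrophage genes. The 20 neuron markers summed to 32.1 to 34.1 CPM at day 12 and 46.4 to 77.5 CPM at day 6. The 12 astrocyte markers summed to 119 to 149 CPM at day 12 and 97.7 to 138 CPM at day 6, and the 12 oligodendrocyte markers to 180 to 246 CPM at day 12 and 159 to 205 CPM at day 6. Neural progenitor markers, 12 in all, had a higher sum, 338 to 404 CPM at day 12 and 359 to 443 CPM at day 6. Endothelial markers summed to 9.71 to 14.7 CPM at day 12 and 22.1 to 31.7 CPM at day 6, neutrophil and mast cell markers to 78.6 to 90.7 CPM at day 12 and 128 to 133 CPM at day 6, and lymphocyte markers to 51.3 to 86.0 CPM at day 12 and 91.7 to 107 CPM at day 6. The fibroblast and dendritic cell sums lay wholly higher at day 12, and the neuron, endothelial, neutrophil and mast cell, and lymphocyte sums wholly lower. Their part in the results was not tested. For fibroblast and neuron markers edgeR and DESeq2 called 0 of the 14 and 17 tested members. Of the 14 fibroblast markers 13 were positive and 8 lay wholly above their day 6 values, against 12.2% of all tested genes. Of the 17 neuron markers 15 were negative and 5 lay wholly below, against 12% of all tested genes. At an unadjusted p below 0.05 stood 5 fibroblast genes, all higher, and 1 neuron gene, lower. Of all 15000 tested genes 1527 had such a p, in either direction. The 14 lymphocyte markers include Ccl5, which fell, and Cd3d, Cd8a and Trac were at 0 in all 6 libraries. Of the neutrophil and mast cell markers Retnlg, Mcpt4, Mcpt8, Fcer1a and Ms4a2 were at 0 in all 6.

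The earlier days show when these genes were highest. Of the 56 genes that fell, 40 had their highest mean at day 3 and 44 had a higher mean at day 3 than at day 6. Saa3 averaged 0.28, 636, 77.3 and 13 CPM at days 0, 3, 6 and 12, Ccl5 1.48, 455, 28.9 and 3.45 CPM, and Acp5 1.82, 113, 33.2 and 3.27 CPM. H2-K1 averaged 1659, 5492, 4301 and 2270 CPM, so its day 12 mean was still above day 0. Psap did not peak, with 24484, 12469, 9311 and 5220 CPM at days 0, 3, 6 and 12. Of the 22 genes that rose, 21 had their highest mean at day 12. Both sets were chosen by their change from day 6 to day 12, which partly fixes these counts. A gene that rose could not be highest at day 6, nor one that fell at day 12. Pmepa1 averaged 0.04, 3.68, 23.4 and 95.1 CPM, Mki67 12.3, 16.2, 51.2 and 140 CPM, and Tmem119 0.09, 49.5, 57.6 and 156 CPM over the 4 days. Day 0 was without co-culture, so a step between day 0 and day 3 holds both time and co-culture, and these orders are descriptions without a test.

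**Figure D4:**
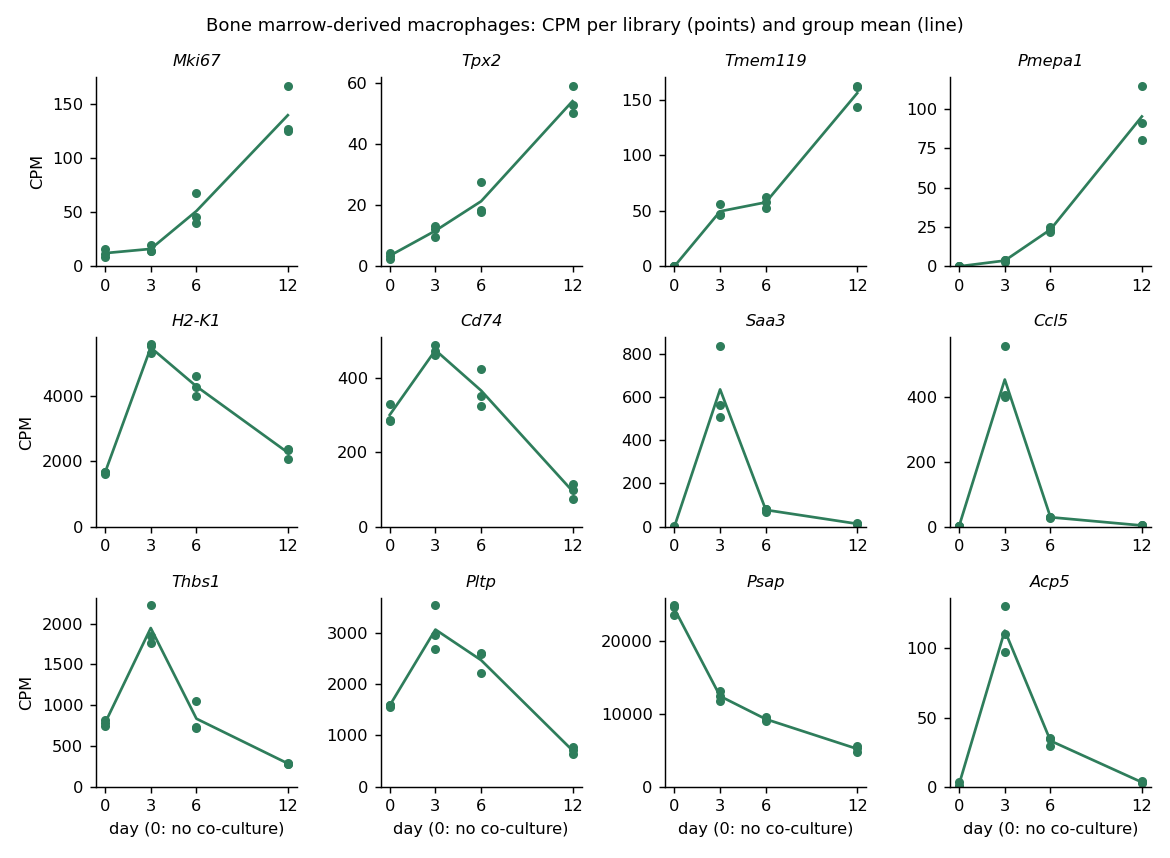
CPM of 12 genes in the bone marrow-derived libraries (points) and group means (lines) against day, where day 0 had no co-culture. Tpx2, Tmem119 and Pmepa1 were highest at day 12, Saa3, Ccl5, Acp5 and Thbs1 were highest at day 3, and Psap declined over the 4 days.

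Whether the change between the same days differed by source was tested as the bone marrow-derived change minus the iPSC-derived change. It was positive for 6 genes and negative for 29 past the threshold, 0.04% and 0.193% of 15000, and 12 of these 35 were also called in bone marrow-derived cells. Leaving out 1 of the 12 compared libraries gave 0 (without bone marrow-derived day 6 replicate 1) to 38 (without iPSC-derived day 12 replicate 3) positive genes, and 6 (without bone marrow-derived day 12 replicate 3 or day 6 replicate 1) to 127 (without iPSC-derived day 12 replicate 3) negative genes. H2-K1 fell in bone marrow-derived cells by -0.92, while its log2 fold change was -0.15 in iPSC-derived cells (842 CPM at day 12 and 936 CPM at day 6), a difference of -0.77 ± 0.16 (edgeR adjusted p = 0.0344). H2-T23 had -0.86 in bone marrow-derived and 0.41 in iPSC-derived cells, a difference of -1.27 ± 0.19 (edgeR adjusted p = 0.00194). H2-D1 had -0.88 in bone marrow-derived and -0.21 in iPSC-derived cells, a difference of -0.68 ± 0.15 that was not called (edgeR adjusted p = 0.0549). The change thus differed between the sources for H2-K1 and H2-T23, within the uncertainty of single H2 genes stated above.

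Glycolytic genes differed between the sources too. Aldoa had a log2 fold change of -0.69 in bone marrow-derived cells and 0.48 in iPSC-derived cells (difference -1.16 ± 0.17, edgeR adjusted p = 0.00194), and Tpi1 of -0.64 and 0.48 in the same order (-1.12 ± 0.20, edgeR adjusted p = 0.0139). Of the 30 glycolysis and hypoxia genes 3 differed between sources, all towards lower values in bone marrow-derived cells. Pltp (-1.58 ± 0.31, edgeR adjusted p = 0.0318), Acp5 (-2.60 ± 0.56, edgeR adjusted p = 0.0494) and Hmox1 (-1.34 ± 0.24, edgeR adjusted p = 0.0139) differed the same way. Hmox1 was itself uncalled in bone marrow-derived cells over 24 libraries, and called lower in the 12-library fit.

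Several genes had fold changes of opposite sign in the sources. Il1rn, the interleukin 1 receptor antagonist, had a log2 fold change of -1.02 in bone marrow-derived cells and 2.28 in iPSC-derived cells (difference -3.30 ± 0.64, edgeR adjusted p = 0.0249). Fpr1, a receptor for bacterial formyl peptides, had -0.57 in bone marrow-derived and 2.53 in iPSC-derived cells (-3.10 ± 0.53, edgeR adjusted p = 0.0139). Clec4n, the fungal receptor Dectin-2, had -0.88 in bone marrow-derived and 1.73 in iPSC-derived cells (-2.62 ± 0.38, edgeR adjusted p = 0.00194). In these 3 genes the iPSC-derived rise was called in the 24-library fit and the bone marrow-derived change was not. The fit on the 12 bone marrow-derived libraries called all 3 lower (edgeR adjusted p = 0.0151 for Il1rn, 0.00491 for Fpr1 and 6.43e-04 for Clec4n). In the positive direction stood Flnc (5.10 ± 0.81, edgeR adjusted p = 0.00652), Ccnd2, which encodes cyclin D2 (3.02 ± 0.56, edgeR adjusted p = 0.0159), the imprinted gene Peg3 (2.25 ± 0.48, edgeR adjusted p = 0.0452) and Tubb5 (1.02 ± 0.22, edgeR adjusted p = 0.0452). Ccnd2 averaged 59.0 and 26.4 CPM at day 12 and day 6 in bone marrow-derived cells, against 16.5 and 60.2 CPM at day 12 and day 6 in iPSC-derived cells.

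The mitosis list had a median of 1.36 in bone marrow-derived and 0.65 in iPSC-derived cells. Tpx2 had a difference of 1.12 ± 0.40 (edgeR adjusted p = 0.253). Tmem119 had log2 fold changes of 1.43 in bone marrow-derived and 1.45 in iPSC-derived cells, a difference of -0.01 ± 0.52. Cx3cr1 had 0.78 in bone marrow-derived and -0.59 in iPSC-derived cells, a difference of 1.37 ± 0.52 that was not called (edgeR adjusted p = 0.305). Slc11a1, Ccl5, Saa3 and Chil1 fell in both sources, and Slc38a2 and Cbr2 rose in both. In total 14 genes were called in both sources, 12 of them in the same direction.

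**Figure D5:**
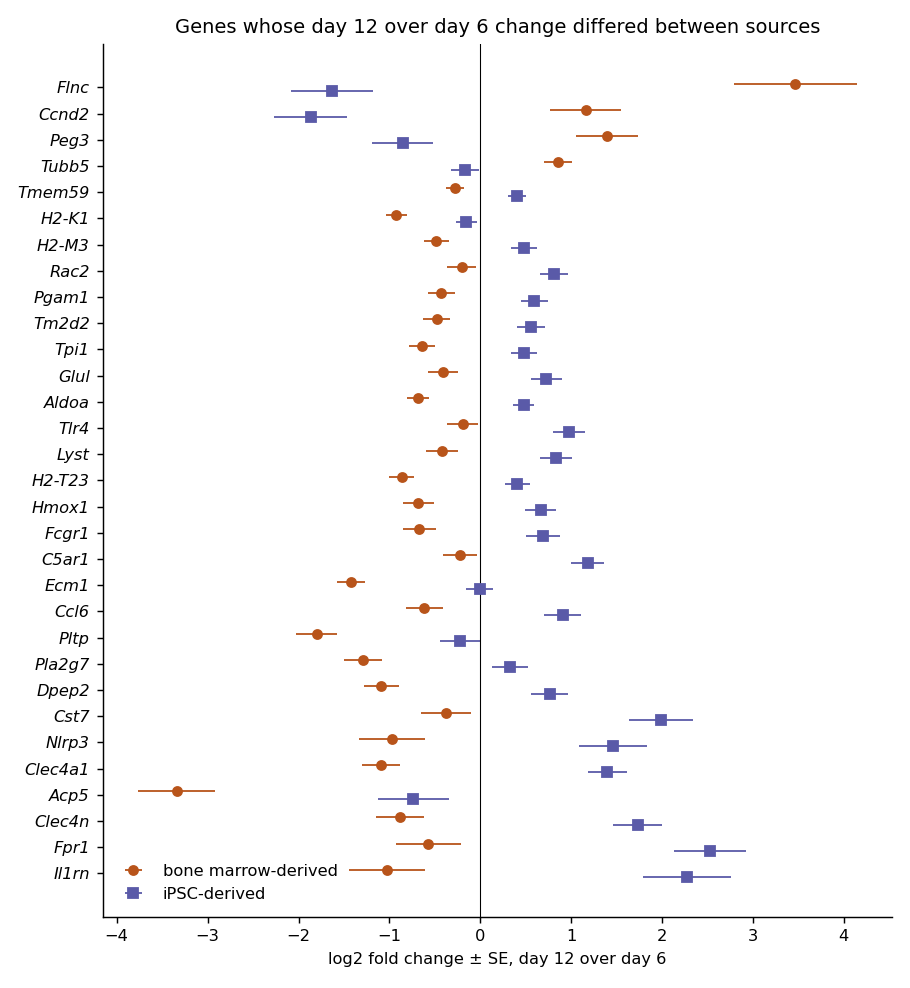
Log2 fold change ± SE, day 12 over day 6, in bone marrow-derived cells (circles, upper of each pair) and iPSC-derived cells (squares) for the 31 genes with a called difference and at least 20 CPM in some group. Flnc, Ccnd2 and Peg3 lie above 0 in bone marrow-derived and below 0 in iPSC-derived cells, while Il1rn, Fpr1 and Clec4n lie the other way.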

How the data were processed

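RNA of macrophage samples was made into SMART-seq v2 libraries, per the labels' protocols. The deposited values are whole-number read counts per gene, made by the authors with featureCounts 1.5.0-p1 on the GENCODE vM9 annotation without strand, per the file headers, which also give each gene's exon length, another deposited value. STAR and the builds mm10 and GRCm38 are named per the submitters' processing notes. The protocol names ERCC spike-in RNA, and the table holds 0 such rows. Counting was unstranded, so reads from an antisense gene are counted with the gene they overlap.

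All 24 libraries (5839316 to 11805478 counts) entered a fit with 1 mean per group in edgeR 4.0.16 (R 4.3.3), with TMM scaling, the default filter on low counts (a minimum count of 10 and a total of 15) and the quasi-likelihood test, which left 15000 of 47643 genes. CPM use the scaled library sizes. Of the gene IDs 47224 had a symbol, and the 419 without one took 0.0635% of counts. No 2 libraries were identical (0 pairs), and the chi-square per degree of freedom of replicate pairs was 6.40 to 20.5. Alternatives were other scalings, filters, samples in the fit, DESeq2 1.42.0, the replicate block and leaving out each library.

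Named genes were the 10 called genes with the largest change in each direction without overlap and with at least 20 CPM, 18 genes fixed by name, up to 4 called genes per list and direction, and the 4 largest source differences in each direction. Other genes named, such as Aurkb, Plk1, Ccnb2, Tap1, Nlrc5, H2-Eb1, H2-Ab1, Ciita, H2-DMa, Ccl2, Ccl12, Irf7, Stab1, Slc2a1 and Bnip3, were chosen after their values were seen. The comparison and the gene lists were chosen with earlier results of these data known. Promoter windows are from RefSeq. Figures were drawn with matplotlib 3.10.9. Some genes are not reported here.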

Additional observations from a re-analysis of the deposited data

Results flagged for a closer look

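For 14 named genes the change between day 6 and day 12 differed between the sources, by edgeR's test of the difference itself (bone marrow-derived minus iPSC-derived log2 fold change, n = 3 libraries per group). The difference was positive for Flnc (5.10), Ccnd2 (3.02), Peg3 (2.25) and Tubb5 (1.02). It was negative for Il1rn (-3.30), Fpr1 (-3.10), Clec4n (-2.62), Acp5 (-2.60), Pltp (-1.58), Hmox1 (-1.34), H2-T23 (-1.27), Aldoa (-1.16), Tpi1 (-1.12) and H2-K1 (-0.77). Cd74 (-2.89) and Il1b (-5.59) had large differences that were not called, with edgeR adjusted p of 0.0584 and 0.0777. In iPSC-derived cells Cd74 was low, averaging 9.06 CPM at day 12 and 4.71 CPM at day 6. The iPSC-derived day 12 libraries differed widely in Il1b, with 27.4, 170 and 4.35 CPM, against a day 6 mean of 3.97 CPM.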

How the results depend on the processing

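The counts of called genes depended on the setting. Against 22 rises and 56 falls, DESeq2 called 103 and 162, no filter on low counts gave 272 and 265, a mean of at least 5 CPM gave 34 rises, and no scaling factors gave 34 falls. The fit on only the compared groups gave 575 and 423, and the fit on the 12 bone marrow-derived libraries 505 and 536. Leaving out 1 library gave 0 to 5 rises and 17 to 34 falls. For the difference between sources, against 6 positive and 29 negative genes, no filter gave 332 and 280, a mean of at least 5 CPM 14 and 49, DESeq2 103 and 132, the fit on only the compared groups 10 positive, and no scaling 15 negative, while leaving out 1 library gave 0 to 38 and 6 to 127. The cause was not tested. Reversed values were found for Trem2 (0.0469 without day 12 replicate 1, in a range of -0.1839 to 0.0469 when 1 library was left out) and Apoe (-0.0226 without the filter, and -0.0509 to 0.096 when 1 library was left out, negative without day 12 replicate 2 or 3 or day 6 replicate 2 or 3), neither of them called. Over named genes and settings, 674 values in bone marrow-derived cells kept direction and call, 127 lost the call, 45 gained it and 6 reversed. For the named source differences 194 values kept direction and call, 72 lost the call and 0 reversed.

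Replicate numbers are shared between the groups, but same-numbered libraries did not deviate together (correlations -0.02, 0.00 and 0.02), so the numbers were not used for pairing. With the replicate block 46 genes were called higher and 77 lower, and for the source difference 21 and 51.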

Other observations

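Genes of cholesterol synthesis were mostly higher at day 12: 20 of 24 had a positive log2 fold change, with a median of 0.41. Wholly above their day 6 values lay 11, against 12.2% of all tested genes. EdgeR called 0 of the 24, DESeq2 called 1, and 9 had an unadjusted p below 0.05 in the higher direction. The fit on the 12 bone marrow-derived libraries called 7. Of all genes in that fit 3.66% were called higher and 3.88% lower. Lipid droplet and PPAR target genes leaned the other way, with 17 of 19 negative and a median of -0.31. EdgeR and DESeq2 called 0 of these, 3 had an unadjusted p below 0.05 in the lower direction, and the fit on the 12 libraries called 2 lower. Of all 15000 tested genes 1527 had an unadjusted p below 0.05, in either direction.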
